A study of Mus musculus with 12 samples.

Results

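The lipid genes of the sebaceous gland were followed in the skin epidermis of newborn mice. The set was chosen by gene symbol and held 10 genes, Awat1, Awat2, Soat1, Cidea, Scd1, Scd3, Elovl3, Mc5r, Pparg and Far2, of the 46078 genes in the count table, and each symbol matched a single row. RNA was sequenced in 12 libraries, in 4 groups of 3, with 1 mouse per library by the stated design. L1L2p53cKO mice (K14-Cre, Llgl1/2 flox/flox and Trp53 +/flox) carried floxed alleles of the polarity genes Llgl1 and Llgl2 together with a single floxed allele of the tumour suppressor Trp53. L1L2cKO mice (K14-Cre/Llgl1/2 flox/flox) had both Trp53 alleles intact, p53cKO mice (K14-Cre/Trp53 +/flox) had both Llgl genes intact, and controls (K14-Cre) carried the transgene alone. All 4 groups therefore shared K14-Cre, which drives Cre recombinase from a keratin promoter in basal keratinocytes and in the epithelial appendages that derive from them, and p53cKO here means heterozygous deletion.

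Sebaceous glands are outgrowths of the hair follicle whose cells, the sebocytes, fill with lipid droplets and burst to release sebum. Sebum in the mouse is rich in wax esters, sterol esters and triglycerides, built from fatty acids that are elongated and desaturated in the sebocyte. PPARG, a lipid-activated nuclear receptor, drives the differentiation of sebocytes as it does that of adipocytes, and the melanocortin receptor MC5R is needed for normal sebum production in mice. The comparison of the genotypes addressed how the loss of Llgl1 and Llgl2, with and without a Trp53 allele, changes gene expression in the epidermis.

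Promoter sequences were read for the members that RefSeq's table on GRCm38.p6 listed, 6 of the 10 symbols (Awat1, Awat2, Soat1, Scd3, Pparg and Far2). Those of Awat2, Soat1 and Pparg are shown because these genes fell together, and that of Far2 because it did not fall with them. RefSeq lists 2 starts for Awat2 and 3 for Pparg, and 1 is shown of each; it was picked with the matches in view, and for Pparg it is the one with the most. Each runs from 250 bases before to 50 bases after an annotated start, 5′ to 3′ on the gene's strand: Awat2 is at chrX:100442668-100442967 and Soat1 at chr1:156474279-156474578, both on the minus strand, while Pparg is at chr6:115362099-115362398 and Far2 at chr6:148047166-148047465, both on the plus strand. Capitals mark matches, on either strand, to 1 of 6 motifs: the direct repeat DR1 bound by PPAR with its partner RXR, which is 2 copies of AGGTCA set 1 base apart, its half-site AGGTCA, the sterol regulatory element TCACNCCAC, the TATA box TATAAA, the CCAAT box CCAAT and the GC box GGGCGG.
Awat2: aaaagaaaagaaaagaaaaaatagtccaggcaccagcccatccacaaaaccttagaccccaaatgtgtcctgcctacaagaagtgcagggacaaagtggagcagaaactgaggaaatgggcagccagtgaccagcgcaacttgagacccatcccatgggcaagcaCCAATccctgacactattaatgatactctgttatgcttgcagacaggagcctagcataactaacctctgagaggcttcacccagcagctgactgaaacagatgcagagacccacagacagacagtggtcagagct
Soat1: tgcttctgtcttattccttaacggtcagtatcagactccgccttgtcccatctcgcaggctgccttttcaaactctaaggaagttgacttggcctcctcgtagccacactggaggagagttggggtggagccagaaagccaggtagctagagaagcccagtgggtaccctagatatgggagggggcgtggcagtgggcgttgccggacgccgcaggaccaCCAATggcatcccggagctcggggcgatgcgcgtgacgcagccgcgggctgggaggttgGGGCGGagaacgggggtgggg
Pparg: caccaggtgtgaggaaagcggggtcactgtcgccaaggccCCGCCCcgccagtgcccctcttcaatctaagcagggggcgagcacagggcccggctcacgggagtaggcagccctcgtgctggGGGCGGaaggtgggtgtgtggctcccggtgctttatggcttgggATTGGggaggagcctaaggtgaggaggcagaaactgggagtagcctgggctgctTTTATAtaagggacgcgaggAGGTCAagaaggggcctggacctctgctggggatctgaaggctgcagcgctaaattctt
Far2: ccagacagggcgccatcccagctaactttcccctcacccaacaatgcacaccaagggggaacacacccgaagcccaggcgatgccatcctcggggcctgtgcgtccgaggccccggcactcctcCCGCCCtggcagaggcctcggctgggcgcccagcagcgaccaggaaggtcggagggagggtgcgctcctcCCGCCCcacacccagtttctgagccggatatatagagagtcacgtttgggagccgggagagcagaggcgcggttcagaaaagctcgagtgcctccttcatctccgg

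Positions are counted from the start site, which is 0, and matches lie on the gene's strand unless marked as opposite. The Awat2 window shown held a single CCAAT box at -85, and the other Awat2 window a CCAAT box at -121 (opposite) and a GC box at -70. The Soat1 window held a CCAAT box at -30 and a GC box at 29. The Pparg window shown held an AGGTCA half-site at -9, a TATA box match at -29 (opposite), a CCAAT box at -83 (opposite) and GC boxes at -127 and -210 (the latter opposite). Of the other Pparg windows, 1 held a half-site at -28 and a GC box at -177 (opposite), and 1 held CCAAT boxes alone, at -144 and -22. The Far2 window held GC boxes at -56 and -126 (both opposite) and no other match. The direct repeat and the sterol regulatory element were found in none of the windows read for the 6 genes. Over all 32851 promoters of the same length, the half-site, which the direct repeat contains, was present in 16.3%, the CCAAT box in 37.4%, the GC box in 35.7%, the TATA box in 13.6%, the sterol regulatory element in 1.24% and the direct repeat in 0.0396%. These matches are descriptions of letters, and no binding was measured.

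Libraries held 6738720 to 14509507 counts, and levels are given as CPM, counts relative to library sizes scaled by TMM (trimmed mean of M values). Llgl2 was at 6.12 to 12.4 CPM in L1L2p53cKO and 7.63 to 9.69 CPM in L1L2cKO, against 66.5 to 109 CPM in p53cKO and 65.4 to 110 CPM in control. Llgl1 was higher, not lower (187 to 248 and 218 to 280 CPM, against 122 to 140 and 115 to 173 CPM), and gene counts do not resolve its floxed exons. Averaged over both Trp53 backgrounds, its log2 fold change was 0.79 ± 0.12 (SE; adjusted p = 0.00723 by edgeR's quasi-likelihood test). Its adjusted p was 0.0818 in L1L2cKO against control and 0.0723 in L1L2p53cKO against p53cKO. Trp53 was at 65.9 to 98.3 CPM in L1L2p53cKO, 112 to 122 CPM in L1L2cKO and 109 to 130 CPM in control. In p53cKO it was at 61.8 and 60.9 CPM in libraries 1 and 2, but at 115 CPM, within the control range, in the library labelled p53cKO 3. That library and control 3 also stood apart from the rest of their groups in many of the values below. Keratinocyte markers were abundant in every library (66880 to 123000 CPM summed over 10 genes).

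On GRCm38, all 10 members are protein-coding genes, and values are per gene over all its exons. All 10 passed the filter on low counts, and their levels in control differed widely. To compare genes, levels were divided by the merged length of all annotated exons of each gene, which can exceed that of any single transcript. On this scale Scd1 stood highest in control with 43.9 ± 5.08 CPM per kb (SD, n = 3). Awat1, Cidea and Elovl3 followed at 15.3 ± 5.21, 14.8 ± 5.13 and 13.9 ± 3.47 CPM per kb, and their control libraries overlapped. Far2 had 8.16 ± 0.766, Soat1 4.67 ± 1.14 and Awat2 4.05 ± 2.18 CPM per kb. Pparg, Scd3 and Mc5r were the lowest, at 2.76 ± 0.536, 2.08 ± 1.17 and 0.614 ± 0.287 CPM per kb. Neighbours in this order from Awat1 to Elovl3 and from Soat1 through Awat2 and Pparg to Scd3 did not differ by more than the larger SD of the pair. The merged exons of Far2 span 7.313 kb, but its longest transcript holds only 3431 overlapping windows of 50 bases. Its place below Awat1, Cidea and Elovl3 therefore depends on the length used.

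Most of the set was lower in L1L2p53cKO than in p53cKO. Of the 10 members, 7 fell and 0 rose: Awat2, Soat1, Cidea, Scd1, Elovl3, Mc5r and Pparg. Calls are those of edgeR's quasi-likelihood test with Benjamini-Hochberg adjustment over the 14582 genes tested, at a threshold of 0.05. Of these genes 1.36% were called in this comparison and 0.919% were called lower. The median log2 fold change was -1.88 over the members and 0.00 over all genes tested, and the 7 members that fell were also those whose L1L2p53cKO libraries all lay below every p53cKO library (10.7% of all genes did so). Against control, with the same 3 L1L2p53cKO libraries, 4 members fell (Awat2, Soat1, Scd1 and Elovl3) and 0 rose, against 1.25% of all genes called and 0.905% called lower. The median there was -1.59 over the members and -0.01 over all genes, and the L1L2p53cKO libraries were again wholly below the control libraries for 7 members (9.2% of all genes).

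**Figure D1:**
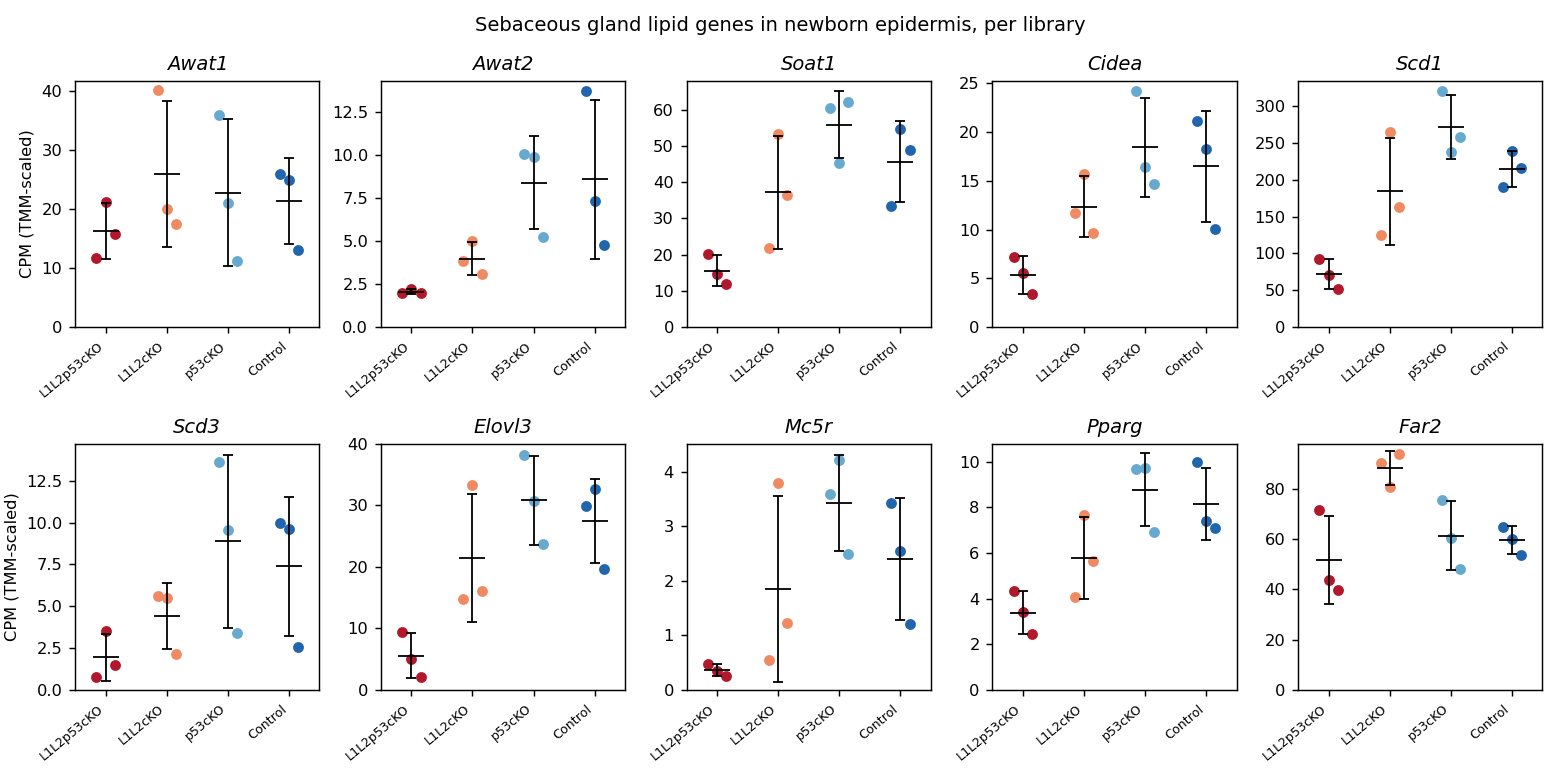
Level of each of the 10 genes in every library, in CPM on axes that start at 0, with groups from left to right L1L2p53cKO, L1L2cKO, p53cKO and control. Each point is a library and the bars are means ± SD (n = 3); for Scd1 the 3 L1L2p53cKO libraries (52.0 to 93.1 CPM) lie below all 9 others, while those of Awat1 overlap with every group.

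Pparg (chr6:115360951-115490399, plus strand), the nuclear receptor of the set, had 4.32, 3.42 and 2.43 CPM in L1L2p53cKO libraries 1 to 3 and 9.69, 9.74 and 6.93 CPM in p53cKO libraries 1 to 3. In L1L2cKO it had 4.05, 7.65 and 5.64 CPM, and in control 9.97, 7.40 and 7.09 CPM. All L1L2p53cKO libraries were lower than all p53cKO and control libraries, and L1L2cKO lay between, overlapping both. Pparg fell 2.58-fold in L1L2p53cKO against p53cKO (log2 fold change -1.37 ± 0.294 SE, adjusted p = 0.0492). Against control the log2 fold change of -1.25 was not called (adjusted p = 0.0652).

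Mc5r (chr18:68337596-68342446, plus strand), the melanocortin receptor, was the least abundant member, with 6, 4 and 3 reads in the L1L2p53cKO libraries. Those reads correspond to 0.471, 0.342 and 0.251 CPM, against 3.60, 4.22 and 2.48 CPM in p53cKO. Its level was 0.550, 3.79 and 1.23 CPM in L1L2cKO, against 3.43, 2.55 and 1.21 CPM in control. L1L2p53cKO was below all other libraries, and L1L2cKO spread over a 6.90-fold range that took in the whole control range. It had the largest change of the set between L1L2p53cKO and p53cKO, a 9.29-fold fall with a wide error (log2 fold change -3.22 ± 0.698 SE, adjusted p = 0.0496). Against control the log2 fold change was -2.67 and was not called (adjusted p = 0.104).

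Scd1 (chr19:44394455-44407879, minus strand), the main stearoyl-CoA desaturase of skin and the gene mutated in asebia mice, which have underdeveloped sebaceous glands, had the smallest adjusted p of the set in both comparisons. It had 93.1, 71.0 and 52.0 CPM in L1L2p53cKO libraries 1 to 3, against 321, 238 and 258 CPM in p53cKO. It had 125, 264 and 163 CPM in L1L2cKO, against 190, 239 and 216 CPM in control. L1L2p53cKO was lowest throughout, and the L1L2cKO libraries lay on both sides of the control range. Scd1 fell 3.78-fold in L1L2p53cKO against p53cKO (log2 fold change -1.92 ± 0.277 SE, adjusted p = 0.00996). Against control it fell 2.98-fold (-1.58 ± 0.275, adjusted p = 0.0308).

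Scd3 (chr19:44203269-44244016, plus strand), a second desaturase that in mouse skin is expressed in sebaceous cells, had 0.785, 3.501 and 1.51 CPM in L1L2p53cKO and 13.7, 9.59 and 3.39 CPM in p53cKO. It had 5.63, 5.47 and 2.114 CPM in L1L2cKO, against 9.97, 9.61 and 2.58 CPM in control. The library labelled p53cKO 3 and control 3 reached down to the L1L2p53cKO range, so the groups overlapped. The log2 fold change of -2.20 ± 0.699 SE against p53cKO was of the size of the others but was not called (adjusted p = 0.157). Scd1 and Scd3 share sequence: 4.66% of the 50-base windows of the longest Scd1 transcript and 6.69% of those of Scd3 occur in other genes, mostly each other and Scd2, so a small part of their reads is uncertain. Scd2, a desaturase not in the set, had a log2 fold change of -0.68 in the same comparison and was not called (adjusted p = 0.249). Scd4, also outside the set and with 98 counts over all 12 libraries, had 0.36 and was not called (adjusted p = 0.785).

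Elovl3 (chr19:46131897-46135694, plus strand), which elongates saturated and monounsaturated fatty acids to very long chains, had 9.42, 5.04 and 2.09 CPM in L1L2p53cKO and 38.2, 30.7 and 23.7 CPM in p53cKO. It had 14.8, 33.4 and 16.0 CPM in L1L2cKO, against 29.9, 32.7 and 19.7 CPM in control. L1L2p53cKO lay below all other libraries, and L1L2cKO 2 was above all control libraries while L1L2cKO 1 and 3 were below them. Elovl3 fell 5.56-fold against p53cKO (log2 fold change -2.48 ± 0.482 SE, adjusted p = 0.0402) and 4.94-fold against control (-2.30 ± 0.480, adjusted p = 0.0471). Its exons overlap those of Pitx3 on the other strand by 10 bases, and Pitx3 had 0 counts in all 12 libraries.

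Awat2 (chrX:100402221-100442717, minus strand), an acyltransferase that joins fatty alcohols to fatty acids to form wax esters, had 1.96, 2.22 and 2.01 CPM in L1L2p53cKO and 10.1, 9.88 and 5.27 CPM in p53cKO. It had 3.85, 5.03 and 3.08 CPM in L1L2cKO, against 13.7, 7.31 and 4.76 CPM in control. The L1L2p53cKO values were nearly equal and the lowest of all, and L1L2cKO overlapped control only through L1L2cKO 2 and control 3. Awat2 fell 4.04-fold in L1L2p53cKO against p53cKO (log2 fold change -2.01 ± 0.398 SE, adjusted p = 0.0402) and 4.08-fold against control (-2.03 ± 0.399, adjusted p = 0.0406).

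Awat1 (chrX:100572251-100578205, plus strand), its neighbour on chromosome X and also a wax ester synthase, did not follow it. Its levels were 11.8, 21.3 and 15.7 CPM in L1L2p53cKO, 40.2, 20.0 and 17.5 CPM in L1L2cKO, 36.0, 21.1 and 11.2 CPM in p53cKO and 26.0, 25.0 and 13.0 CPM in control. All 4 groups overlapped, and both the lowest library, p53cKO 3, and the highest, L1L2cKO 1, lay outside L1L2p53cKO. The log2 fold change of L1L2p53cKO against p53cKO was -0.48 with a 95% interval of -1.48 to 0.51 (adjusted p = 0.674). Whether Awat1 and Awat2 differ in their change was not tested.

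Soat1 (chr1:156424525-156474331, minus strand), which esterifies cholesterol for storage, had 20.2, 14.6 and 11.9 CPM in L1L2p53cKO and 60.5, 45.2 and 62.2 CPM in p53cKO. It had 21.9, 53.3 and 36.4 CPM in L1L2cKO, against 33.4, 54.8 and 49.0 CPM in control. All L1L2p53cKO libraries were below all others, by a narrow margin from L1L2cKO 1. Soat1 fell 3.59-fold against p53cKO (log2 fold change -1.84 ± 0.317 SE, adjusted p = 0.0288) and 2.94-fold against control (-1.56 ± 0.316, adjusted p = 0.0436).

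Far2 (chr6:148047259-148182758, plus strand), the reductase that makes the fatty alcohols of wax esters, had 71.8, 43.7 and 39.9 CPM in L1L2p53cKO and 75.7, 60.6 and 48.3 CPM in p53cKO, and these groups overlapped. The log2 fold change was -0.25 with a 95% interval of -0.72 to 0.23 (adjusted p = 0.652). In L1L2cKO it had 90.5, 81.0 and 93.9 CPM, all above the 64.9, 60.3 and 53.8 CPM of control, the one member for which L1L2cKO and control did not overlap (4.49% of all genes had L1L2cKO wholly above control). The log2 fold change of 0.57 ± 0.216 SE was not called (adjusted p = 0.671). Far2 shares 837 exonic bases with Ergic2 on the opposite strand. The counting's strand setting is not given in the sources used here, so reads in that stretch cannot be assigned with certainty. Ergic2 itself was at 36.9 to 50.5 CPM over the 12 libraries, with a log2 fold change of -0.14 in L1L2p53cKO against p53cKO and -0.02 in L1L2cKO against control, neither called (adjusted p = 0.687 and 0.998).

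Cidea (chr18:67343604-67367785, plus strand), a protein of the lipid droplet surface that promotes droplet fusion and is also abundant in brown fat, had 7.22, 5.55 and 3.35 CPM in L1L2p53cKO and 24.2, 16.4 and 14.7 CPM in p53cKO. It had 11.7, 15.7 and 9.60 CPM in L1L2cKO, against 21.1, 18.3 and 10.1 CPM in control. L1L2p53cKO was below all other libraries, and L1L2cKO overlapped control only because of control 3. Cidea fell 3.42-fold against p53cKO (log2 fold change -1.78 ± 0.348 SE, adjusted p = 0.0392). Against control its log2 fold change of -1.60 was not called (adjusted p = 0.0513).

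**Figure D2:**
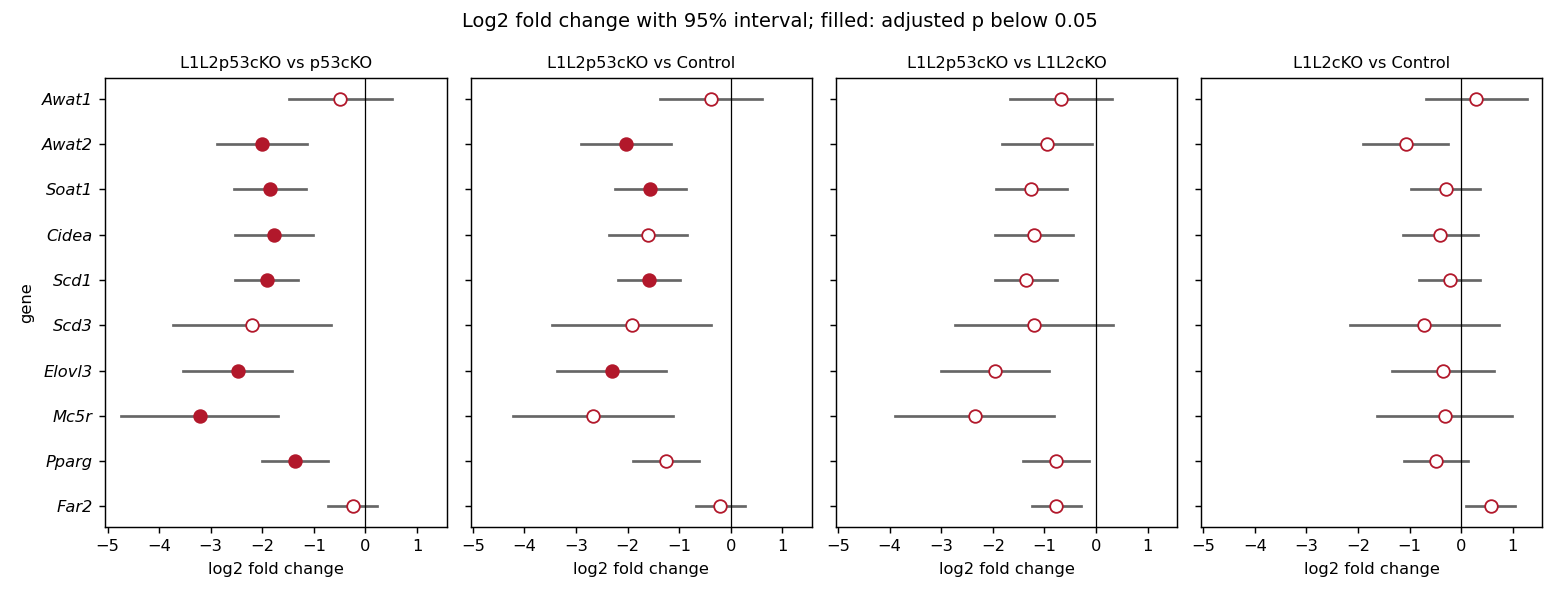
Log2 fold change of each of the 10 genes with its 95% interval, from edgeR's fit, in 4 pairwise comparisons, with filled points where the adjusted p was below 0.05. In L1L2p53cKO against p53cKO all 10 points are below 0, from -3.22 (Mc5r) to -0.25 (Far2), and in L1L2cKO against control they run from -1.08 (Awat2) to 0.57 (Far2).

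These calls depended on single libraries. In L1L2p53cKO against p53cKO the count of members called was 0 without L1L2p53cKO 2, L1L2p53cKO 3 or p53cKO 1, 1 without p53cKO 2, 2 without control 2, 3 without control 1 and 4 without L1L2p53cKO 1 or L1L2cKO 3. In L1L2p53cKO against control it was 0 without L1L2p53cKO 2, L1L2p53cKO 3, p53cKO 2, control 1 or control 2, 1 without p53cKO 1, and 2 without L1L2cKO 1 or L1L2cKO 3. For the 7 members called against p53cKO the log2 fold changes themselves stayed between -3.47 and -1.18 over the 19 alternatives.

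With both Trp53 alleles intact, the loss of Llgl1 and Llgl2 gave no called change in the set. In L1L2cKO against control 0 of 10 members were called by edgeR (0.226% of all genes) and 0 by DESeq2. An unadjusted p below 0.05 was found for 2 members, Awat2 (lower) and Far2 (higher), and for 920 genes of all those tested. The median log2 fold change was -0.34 over the members and -0.01 over all genes. Awat2 had the largest, -1.08 ± 0.379 SE (adjusted p = 0.613), and Scd1, with -0.22, had a 95% interval of -0.81 to 0.36. Without control 3 and the library labelled p53cKO 3 together, an alternative chosen after seeing the data, 1 member was called in this comparison, Awat2 (adjusted p = 0.0342). That fit called 413 of the 14761 genes it tested, where the main fit called 33 of 14582.

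In p53cKO against control, the comparison for a Trp53 allele alone, 0 members and 0% of all genes were called by edgeR, and 0 members by DESeq2. Trp53 in the library labelled p53cKO 3 was within the control range (115 CPM), so the comparison may not measure the loss of an allele in every mouse. No member had an unadjusted p below 0.05 (0 of 10; 63 genes of all those tested did). The log2 fold changes ran from -0.02 for Awat2 to 0.54 for Mc5r, with 95% intervals as wide as -0.75 to 1.83 for Mc5r and -0.25 to 0.93 for Scd1.

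L1L2p53cKO and L1L2cKO differ in the floxed Trp53 allele. Here too 0 members and 0% of all genes were called by edgeR, although 8 members had an unadjusted p below 0.05 and 747 genes of all those tested did. The L1L2p53cKO libraries were wholly below the L1L2cKO libraries for 7 members, Awat2, Soat1, Cidea, Scd1, Elovl3, Mc5r and Far2 (5.13% of all genes). Their log2 fold changes ran from -2.35 ± 0.705 SE for Mc5r to -0.77 ± 0.216 for Far2, and the median over all 10 members was -1.20, against 0.00 over all genes. DESeq2 called 52 genes and 3 members, Scd1 (adjusted p = 0.00434), Elovl3 (adjusted p = 0.0151) and Soat1 (adjusted p = 0.0403).

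The Llgl effect was also averaged over both Trp53 backgrounds, as the mean of L1L2cKO against control and L1L2p53cKO against p53cKO. In this average 6 members fell and 0 rose: Awat2, Soat1, Cidea, Scd1, Elovl3 and Pparg, where 3.33% of all genes were called and 2.15% were called lower. Awat2 fell by 1.55 ± 0.274 on the log2 scale and Scd1 by 1.07 ± 0.192 (SE; adjusted p = 0.0151 for each), and these 2 calls held in all 18 alternatives. Soat1 fell by 1.07, Cidea by 1.09, Pparg by 0.93 and Elovl3 by 1.41 (adjusted p 0.0241, 0.0315, 0.0317 and 0.0413). The count was 2 without L1L2p53cKO 2, L1L2p53cKO 3, L1L2cKO 3, p53cKO 1 or control 2 and 3 without L1L2cKO 1, p53cKO 2 or control 1.

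The difference between both Llgl effects was tested as an interaction, and 0 members and 0% of all genes were called. The log2 interaction was negative for all 10 members, with a median of -1.42 against 0.00 over all genes, and 6 members had an unadjusted p below 0.05, as did 428 of all genes. Scd1, with -1.69 ± 0.382 SE and a 95% interval of -2.53 to -0.86, had the second smallest p of all genes tested (adjusted p = 1). Mc5r had the largest value, -2.89 ± 0.920. By this test the fall of the set in L1L2p53cKO against p53cKO was not shown to differ from the change in L1L2cKO against control.

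**Figure D3:**
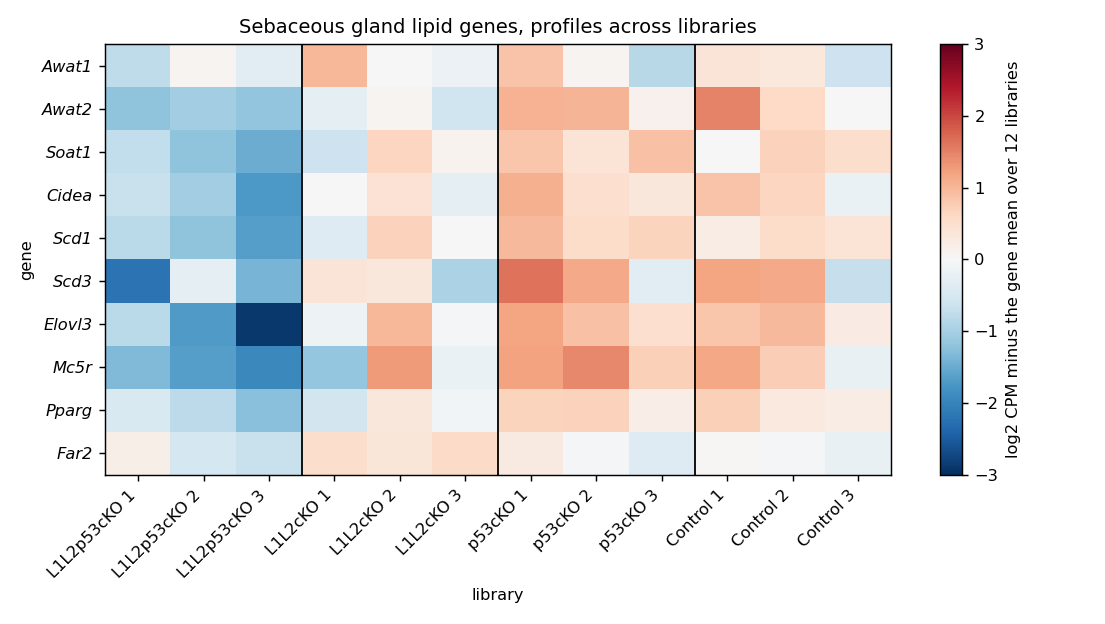
Level of the 10 genes in the 12 libraries, as log2 CPM minus each gene's mean over the libraries, with L1L2p53cKO at the left and control at the right. Most genes are low in the 3 L1L2p53cKO columns (averages over the set of -0.88, -0.93 and -1.45), L1L2cKO 2 is high among the L1L2cKO libraries (0.52), and the Awat1 and Far2 rows differ from the rest.

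Individual libraries moved the members together. With each gene centred on its mean log2 CPM over the 12 libraries, L1L2p53cKO 3 was below that mean for all 10 members and averaged -1.45, the lowest of all. In L1L2cKO, library 2 was at or above the mean for all 10 members and averaged 0.52, while libraries 1 and 3 averaged -0.13 and -0.17. Of the Llgl-intact libraries, p53cKO 1 and 2 averaged 0.97 and 0.66 and controls 1 and 2 averaged 0.69 and 0.59, but the library labelled p53cKO 3 averaged 0.19 and control 3 averaged -0.06. Trp53 was also higher in L1L2p53cKO 1 (98.3 CPM) than in L1L2p53cKO 2 and 3 (67.8 and 65.9 CPM), and that library had the highest level of its group for 7 members, including Scd1, Elovl3 and Soat1. For Awat1, Awat2 and Scd3 it had the lowest level of its group (11.8, 1.96 and 0.785 CPM). In p53cKO the order was the opposite, as the library labelled p53cKO 3 had the highest Trp53 (115 CPM) and the lowest average. The part of the Trp53 level in these orders was not tested.

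Likeness between genes was measured over the 12 libraries as the root-mean-square difference in centred log2 CPM among 12532 candidate genes, where 0 means identical profiles. Soat1 and Scd1 were each other's nearest gene of all, at 0.151, against a median of 0.835 between Scd1 and all candidates. The nearest gene outside the set was Cers4, a ceramide synthase, at 0.152 from Scd1 and 0.211 from Soat1. Pparg lay close to the lipid droplet coat gene Plin2 (0.215), and for Elovl3 the nearest were Tmem45b (0.258) and the fatty acid 2-hydroxylase Fa2h (0.314). Cidea lay nearest to Shisa2 (0.195), Mc5r to Ephb1 (0.217), Awat2 to Nxpe3 (0.244) and Scd3 to Krtap17-1, a hair keratin-associated protein gene (0.466). Awat1 lay nearest to Ccdc69 (0.245) and Far2 to Car11 (0.163). Awat1 and Far2 were each other's nearest member, at 0.522. Among all other genes tested, a wider set than the candidates, Far2 ranked 2841 in likeness to Awat1, and Awat1 ranked 9507 in likeness to Far2. All these profiles share the same libraries and genotype groups.

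In the average Llgl effect, where 3.33% of all genes were called and 2.15% were called lower, 2 of the 26 tested genes of fatty acid synthesis, elongation and desaturation fell and 0 rose (7.69%), with a median log2 fold change of -0.15 over that list. They were Elovl6, the elongase that makes stearate, which fell by 0.73 ± 0.129 (SE; adjusted p = 0.0147), and Fa2h, which fell by 1.75 ± 0.381 (adjusted p = 0.0317). Elovl6 averaged 109 ± 10.4 CPM in L1L2p53cKO and 172 ± 46.5 CPM in L1L2cKO, against 249 ± 19.1 CPM in p53cKO and 208 ± 18.9 CPM in control (SD, n = 3). Fa2h averaged 5.68 ± 3.99 CPM in L1L2p53cKO, against 51.0 ± 23.6 CPM in p53cKO, with 33.2 ± 18.4 CPM in L1L2cKO and 42.0 ± 9.47 CPM in control. Both were also called lower in L1L2p53cKO against p53cKO (adjusted p = 0.0141 and 0.0362) and against control (adjusted p = 0.0401 and 0.043), but these calls were lost without L1L2p53cKO 2, L1L2p53cKO 3 or p53cKO 2, and some of them without p53cKO 1, control 1, control 2, L1L2p53cKO 1 or L1L2cKO 3. The call of Elovl6 in the average held in all 18 alternatives. That of Fa2h was lost in 9, among them the fits without replicates 2 or 3 of L1L2p53cKO, 1 or 3 of L1L2cKO, 1 or 2 of p53cKO and 1 or 2 of control (adjusted p up to 0.108).

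Of 15 tested genes of sebocytes and the upper follicle, 1 fell and 1 rose in the average Llgl effect (13.3% called, against 3.33% of all genes). Plin2 fell by 0.93 ± 0.164 (adjusted p = 0.0151), at 21.8 ± 4.26 CPM in L1L2p53cKO and 32.5 ± 6.14 CPM in L1L2cKO, against 49.3 ± 8.68 CPM in p53cKO and 52.4 ± 14.9 CPM in control. Lgr6, a receptor that marks stem cells of the upper follicle, rose by 0.61 ± 0.0956 (adjusted p = 0.00883), at 298 ± 35.6 and 292 ± 43.1 CPM against 194 ± 6.55 and 193 ± 13.5 CPM in the same groups. Krt79, a keratin of the sebaceous duct and infundibulum, averaged 1342 ± 192 CPM in L1L2p53cKO, against 1672 ± 282 CPM in p53cKO, and was not called. Among neutral lipid acyltransferases and lipid droplet genes 0 of the 15 tested were called by edgeR in any comparison, and 4 had an unadjusted p below 0.05 in L1L2p53cKO against p53cKO, in L1L2p53cKO against control and in the average Llgl effect. Plin4, a lipid droplet coat gene, had a log2 fold change of -3.89 in L1L2p53cKO against p53cKO (adjusted p = 0.1). DESeq2 was run on all tested genes, but its calls were read for only 3 genes of that list, those with the smallest p in the average Llgl effect. Of these it called Plin4 in these 3 comparisons and Mgll, a monoglyceride lipase, in the first pair of them.

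Of 18 tested PPAR partners and targets 1 fell in the average Llgl effect and 0 rose (5.56% called, against 3.33% of all genes). That was Fabp5, the epidermal fatty acid binding protein, with -0.71 ± 0.131 (SE; adjusted p = 0.0164) and group means of 689 ± 68.3, 456 ± 71.8, 933 ± 149 and 897 ± 185 CPM in L1L2p53cKO, L1L2cKO, p53cKO and control. Its call was lost without L1L2p53cKO 3 or L1L2cKO 1 (adjusted p up to 0.0525). Cd36, a fatty acid transporter, had -1.27 and was not called by edgeR (adjusted p = 0.06). DESeq2 called Cd36 lower in that average, in L1L2p53cKO against p53cKO and in L1L2p53cKO against control. Of the melanocortin system 3 of the 11 genes listed besides Mc5r were tested and 0 were called by edgeR in any comparison, with 2 at an unadjusted p below 0.05 in the average Llgl effect. DESeq2 called Pcsk2 in that average. In the average Llgl effect the prohormone convertase Pcsk2 had a log2 fold change of 0.99, the receptor Mc1r 0.75 and the antagonist Agrp 0.05 (adjusted p = 0.119, 0.258 and 0.922). Keratinocytes also use many genes of the fatty acid and PPAR lists.

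Markers of some other compartments moved with the set, and those of others did not. In these bulk samples fewer cells of a type and less RNA per cell cannot be told apart. Hair shaft and inner root sheath genes, of which 19 were tested, summed to 172 to 570 CPM in L1L2p53cKO and 1190 to 3904 CPM in L1L2cKO, against 2525 to 6301 CPM in p53cKO and 1750 to 7759 CPM in control. L1L2cKO 2, high for the set, had the highest of the L1L2cKO sums, and control 3 and the library labelled p53cKO 3 the lowest of theirs. In L1L2p53cKO against p53cKO 13 of the 19 fell and 0 rose (0.919% of all genes were called lower), with a median log2 fold change of -4.30, where the median of the set was -1.88. Their part in the result was not tested.

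Adipocytes share Pparg, Cidea and Scd1 with sebocytes, and their defining markers were near 0. Adipoq had 7 counts over all 12 libraries, Plin1 5, Cfd 4, Lep 1 and Pck1 0. The 10 white adipocyte markers together summed to 2.43 to 2.73 CPM in L1L2p53cKO and 2.99 to 5.57 CPM in L1L2cKO, against 5.95 to 20.1 CPM in p53cKO and 4.997 to 32.0 CPM in control. Of the 3 tested, Fabp4 and Retn fell in the average Llgl effect, with -2.94 and -3.83 (adjusted p = 0.0245 and 0.0378), where 2.15% of all genes were called lower. Both calls were lost in 9 or more of 18 alternatives. The other tested marker, Cdo1, was not called and averaged 1.35, 1.37, 1.32 and 1.62 CPM in L1L2p53cKO, L1L2cKO, p53cKO and control. The 7 brown adipocyte markers summed to 3.10 to 7.14 CPM in L1L2p53cKO and 4.95 to 10.2 CPM in L1L2cKO, against 7.85 to 9.71 CPM in p53cKO and 8.08 to 8.83 CPM in control. Of these, 2 were tested, Ucp1 and Dio2, and 0 were called by edgeR in any comparison. Ucp1 averaged 0.602 ± 0.249, 0.569 ± 0.166, 1.15 ± 0.811 and 1.79 ± 1.775 CPM in L1L2p53cKO, L1L2cKO, p53cKO and control (SD, n = 3). Dio2 averaged 3.84 ± 1.70, 5.735 ± 2.45, 7.04 ± 1.88 and 6.02 ± 1.00 CPM in the same groups. The part of adipocyte RNA in the levels of the shared genes was not tested.

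T cell markers summed to 9.82 to 20.4 CPM in L1L2p53cKO and 6.39 to 14.4 CPM in L1L2cKO, against 13.0 to 50.7 CPM in p53cKO and 22.5 to 35.0 CPM in control. Of 7 tested, 2 fell in the average Llgl effect (28.6%, against 3.33% of all genes called). Sums of fibroblast markers, at 175 to 241 and 125 to 211 CPM against 33.8 to 143 and 28.4 to 148 CPM, were carried by the proteoglycan gene Dcn, which averaged 186, 137, 42.8 and 58.2 CPM in L1L2p53cKO, L1L2cKO, p53cKO and control. Of the 6 tested, 0 were called, and 3 had a lower and 3 a higher value in the average Llgl effect. Of the keratinocyte markers 1 of 10, Ivl, a late differentiation protein, fell in the average Llgl effect, where 2.15% of all genes were called lower. Mitochondrial transcripts, a measure of RNA quality, summed to 11650 to 16890 CPM in L1L2p53cKO, 11160 to 13200 CPM in L1L2cKO, 11930 to 13370 CPM in p53cKO and 8110 to 12930 CPM in control, with 0 of 6 called. Sums of macrophage, melanocyte, endothelial and skeletal muscle markers overlapped between all groups, with the last of these at 2.108 CPM or less. None of these compartments was tested for its part in the levels of the lipid genes.

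**Figure D4:**
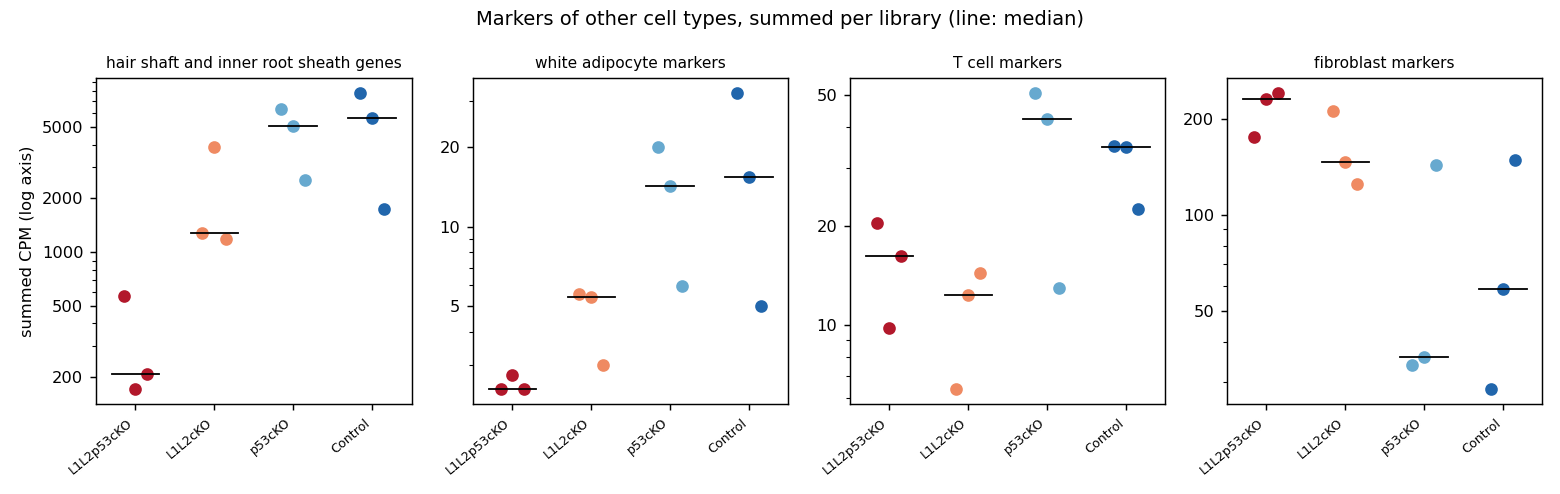
Summed CPM of marker lists of 4 other compartments in each library, on log axes, with lines at the group medians. Hair shaft genes are lowest in L1L2p53cKO (172 to 570 CPM), adipocyte markers reach at most 32.0 CPM, and fibroblast sums, carried by Dcn, are higher in both Llgl-deleted groups than in most p53cKO and control libraries.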

How the data were processed

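RNA of newborn skin epidermis was measured in 12 libraries, made from total RNA with a stranded mRNA kit per the labels' protocols. The authors deposited raw counts per gene, not normalized, and per the submitters' processing notes STAR, featureCounts 1.6.4 and DESeq2 2.11.40.8 were used with GRCm38. The annotation, strand setting and filters are not given in the sources used here. From the counts, levels were computed as CPM and tested in R 4.3.3 with edgeR 4.0.16 (TMM scaling, filterByExpr with a minimum count of 10, quasi-likelihood test with robust estimation, 1 fit of group means to the 12 libraries, 8 residual degrees of freedom). Of 46078 genes 14582 were tested, and p-values were adjusted over all of them. The biological coefficient of variation was 23.8%, and p-values measure the spread between mice. Exon lengths and positions came from a GRCm38 annotation, and promoters from RefSeq (GRCm38.p6).

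The members and the 16 gene lists were chosen with earlier results of these data known. Besides the members, the text names from each lipid list the 3 genes with the smallest p in the average Llgl effect (not all are printed), genes called, and the 2 genes of at least 1 CPM whose log2 CPM (prior count 2) is most like a member's. Krt79, Scd2, Scd4, Ergic2, Pitx3 and single markers of other cell types are named outside this rule, after their values were seen. Alternatives were DESeq2 1.42.0, median-of-ratios scaling, fits without a filter on low counts or with one of 1 CPM in at least 3 libraries, fits to only the groups compared, the replicate number as a block, and 12 fits that each left a library out. Same-numbered libraries of p53cKO and control deviated together from their group means (correlations across genes of 0.619, 0.207 and 0.824). Differently numbered libraries were not compared, and library 3 stood apart in both groups, so this check cannot show that the numbers pair mice. In the other pairs of groups the correlations did not all pass 0.1. One result is not reported here. The statistical scripts were tested on simulated data.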

Additional observations from a re-analysis of the deposited data

How the results depend on the processing

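With the replicate number as a block the members called were 0 of 10 in p53cKO against control, where same-numbered libraries deviated together. They were 0, 7 and 6 in L1L2cKO against control, L1L2p53cKO against p53cKO and L1L2p53cKO against control. In L1L2p53cKO against L1L2cKO, the average Llgl effect and the interaction they were 0, 8 and 0. Whether the numbers pair mice in any of these comparisons is not known. With only the groups compared, 4 were called in L1L2p53cKO against p53cKO and 1 in L1L2p53cKO against control. DESeq2 called 7 in L1L2p53cKO against control and 3 in L1L2p53cKO against L1L2cKO. Without both control 3 and the library labelled p53cKO 3, an alternative added after seeing the data, 1 was called in L1L2cKO against control and 8 in L1L2p53cKO against control. Leaving out each library in turn gave 0 to 7 in L1L2p53cKO against p53cKO, 0 to 5 in L1L2p53cKO against control, 2 to 7 in the average Llgl effect and 0 in the other 4. The cause was not tested. Counts over all genes were 33, 198, 182, 0, 0, 485 and 0 by edgeR in the order L1L2cKO against control, L1L2p53cKO against p53cKO, L1L2p53cKO against control, p53cKO against control, L1L2p53cKO against L1L2cKO, average and interaction, and 114, 722, 644, 0, 52, 1034 and 0 by DESeq2. They were 376, 347 and 664 with the block and 117 and 49 with only the groups compared, where these moved most, and 413, 1088, 1139 and 2334 without the libraries above. With each library left out in turn the edgeR counts over all genes ran from 15 to 42, 24 to 322, 25 to 351, 0 to 1, 0 to 1, 164 to 697 and 0 to 0 in that order, with 15, 25 and 164 found without control 2 and 24 without L1L2p53cKO 3 or p53cKO 1, so the shares of all genes called move with single libraries too.

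Values that changed sign were not called in any fit. Awat2 in p53cKO against control was -0.02, but 0.00402 without the low-count filter and 0.0103 with the block. Agrp in the average Llgl effect was 0.05, but -0.105 without both control 3 and the library labelled p53cKO 3. With each library left out in turn, log2 fold changes ran from -0.175 to 0.51 (Awat1) and -1.4 to 0.122 (Mc5r) in L1L2cKO against control, -0.82 to 0.0201 (Awat1) in L1L2p53cKO against p53cKO, -0.33 to 0.157 (Awat1) and -0.0397 to 0.135 (Agrp) in the average, and -0.199 to 0.129 (Agrp) in L1L2p53cKO against control. In p53cKO against control they ran from -0.403 to 0.437 (Awat1), -0.315 to 0.477 (Awat2), -0.0901 to 0.387 (Cidea), -0.196 to 0.68 (Scd3), -0.0215 to 0.335 (Elovl3) and -0.126 to 0.196 (Far2). Mc5r rests on 3 to 6 reads in the L1L2p53cKO libraries, where depth limits it most.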
